A study of Mus musculus with 4 samples.

Results

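Arginine metabolism genes were followed by symbol through every single-cell library: Arg1, Arg2, Nos2, Slc7a2, Ass1 and Odc1, which are 6 of the 33448 gene symbols listed. Each symbol was 1 feature in each library. All 6 genes had at least 1 unique molecular identifier (UMI, a tag that counts RNA molecules) in both tumor libraries, against 5 genes in KO bone marrow and 6 in WT bone marrow. KO mice carried S100a8fl/fl with Vav-Cre+/-, so that Cre driven by the Vav promoter deletes S100a8 in hematopoietic cells, and WT mice carried the same floxed S100a8 alleles with Vav-Cre-/-. No treatment was given and no age is stated. CD45+ cells, the marker of hematopoietic cells, were sorted either from bone marrow of mice without tumors or from tumors of LLC, the Lewis lung carcinoma line, and were run as droplet libraries (10x Genomics). Each of the 4 groups (KO tumor, WT tumor, KO bone marrow, WT bone marrow) is 1 library of cells pooled from 3 mice. There is no replicate, so no test was possible: ratios below are KO over WT, their 95% intervals cover counting error only, and cells are not replicates.

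Arginine is brought into myeloid cells largely by cationic amino acid transporters, of which Slc7a2 encodes an inducible one. Arginases, cytosolic Arg1 and mitochondrial Arg2, split arginine into ornithine and urea, while the inducible nitric oxide synthase Nos2 turns it into nitric oxide and citrulline. Ass1 encodes argininosuccinate synthase, which starts the return of citrulline to arginine, and Odc1 encodes ornithine decarboxylase, which turns ornithine into putrescine, the first polyamine. In tumors, arginine use by macrophages and neutrophils is known as a way in which myeloid cells limit T cells, and in mouse macrophages Arg1 and Nos2 are the usual marks of alternative and classical activation.

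In the GRCm38 annotation the transporter Slc7a2 lies on chromosome 8 from 40862396 to 40922308 on the plus strand. The arginases lie apart, Arg1 on chromosome 10 from 24915221 to 24927484 on the minus strand and Arg2 on chromosome 12 from 79130777 to 79156301 on the plus strand. Nos2 lies on chromosome 11 from 78920787 to 78960254 on the plus strand and Ass1 on chromosome 2 from 31470207 to 31520672 on the plus strand. Odc1 lies on chromosome 12 from 17544794 to 17551505 on the plus strand, so it shares its chromosome with Arg2. RefSeq promoters on GRCm38.p6 were matched for 2 of the 6 genes, Ass1 and Odc1. Both are shown, and no promoter was matched for the other genes. The 250 bases before each RefSeq start, both on the plus strand, are chr2:31470020-31470269 for Ass1 and chr12:17544623-17544872 for Odc1. Capitals mark the GC box GGGCGG and the E-box CACGTG, which is the motif that Myc family proteins can bind, on either strand.
Ass1: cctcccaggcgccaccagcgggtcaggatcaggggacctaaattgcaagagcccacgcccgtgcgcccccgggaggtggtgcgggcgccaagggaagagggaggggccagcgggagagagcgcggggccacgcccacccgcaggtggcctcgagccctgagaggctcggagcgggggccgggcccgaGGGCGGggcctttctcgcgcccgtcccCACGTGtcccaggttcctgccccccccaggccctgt
Odc1: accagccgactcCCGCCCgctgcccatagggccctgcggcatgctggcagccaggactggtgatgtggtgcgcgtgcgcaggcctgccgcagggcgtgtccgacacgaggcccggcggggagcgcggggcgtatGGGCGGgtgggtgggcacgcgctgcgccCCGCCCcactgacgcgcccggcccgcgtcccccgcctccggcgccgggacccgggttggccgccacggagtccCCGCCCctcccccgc
The Ass1 window held 1 CACGTG, 36 bases before the start, and 1 GC box at 63 bases, while the Odc1 window held 4 GC boxes, the nearest 15 bases before the start, and 0 CACGTG. Over 32851 RefSeq promoter windows of the same length, 6.02% held CACGTG and 32.7% held the GC box. Neither window held TATAAA, which 12.4% of all windows held. These matches describe letters only.

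The libraries held 10507 cells in KO tumor, 10474 in WT tumor, 9887 in KO bone marrow and 7591 in WT bone marrow after filtering, with a median of 7977 UMIs per cell in KO tumor, 6395 in WT tumor, 2734 in KO bone marrow and 2264 in WT bone marrow. S100a8 itself had 84 UMIs in KO tumor and 11153 in WT tumor, and 6 UMIs in KO bone marrow and 2078230 in WT bone marrow, in the direction of the labels. Its partner S100a9 was at 6554 CPM in the KO library and 264 CPM in the WT library of tumor, and neutrophils made up 29.4% of KO tumor cells and 2.05% of WT tumor cells. Cell classes were rebuilt from clusters and marker lists, without the 6 genes among the genes used to cluster, and their names are therefore reconstructed. Tumor and bone marrow libraries came from different software versions and are given side by side without a ratio.

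Across whole libraries the genes separated by tissue. Bone marrow was almost without Arg1, with 0 UMIs in 9887 KO cells, which allows a share of cells with an Arg1 UMI of up to 0.0303% (3 counts of the total) and does not limit cells that express it, and 1 UMI in WT. Tumor Arg1 averaged 568 CPM in the KO library and 40.5 CPM in the WT library, and 21.9% of KO cells and 3.51% of WT cells had at least 1 UMI. Nos2 was at 76.9 CPM in the KO library and 1.35 CPM in the WT library in tumor, and in bone marrow it had 4 UMIs in KO and 1 in WT. Slc7a2 was at 11.1 CPM in the KO library and 0.751 CPM in the WT library in tumor, and had 32 UMIs in KO bone marrow and 9 in WT bone marrow. Arg1, Nos2 and Slc7a2 were therefore read in tumor only, whereas Arg2, Ass1 and Odc1 could be read in both tissues. Arg2 was at 185 CPM in the KO library and 19.8 CPM in the WT library in tumor, and at 44.5 CPM in the KO library and 26.2 CPM in the WT library in bone marrow. Ass1 was lower in KO tumor, at 73.6 CPM in the KO library and 134 CPM in the WT library, and was at 22.4 CPM in the KO library and 23.3 CPM in the WT library in bone marrow. Odc1 was at 776 CPM in the KO library and 630.0 CPM in the WT library in tumor and at 59.6 CPM in the KO library and 60.2 CPM in the WT library in bone marrow. Whole-library values also carry the makeup of each library, since monocyte or macrophage cells were 46.5% of KO tumor cells and 21.8% of WT tumor cells.

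**Figure D1:**
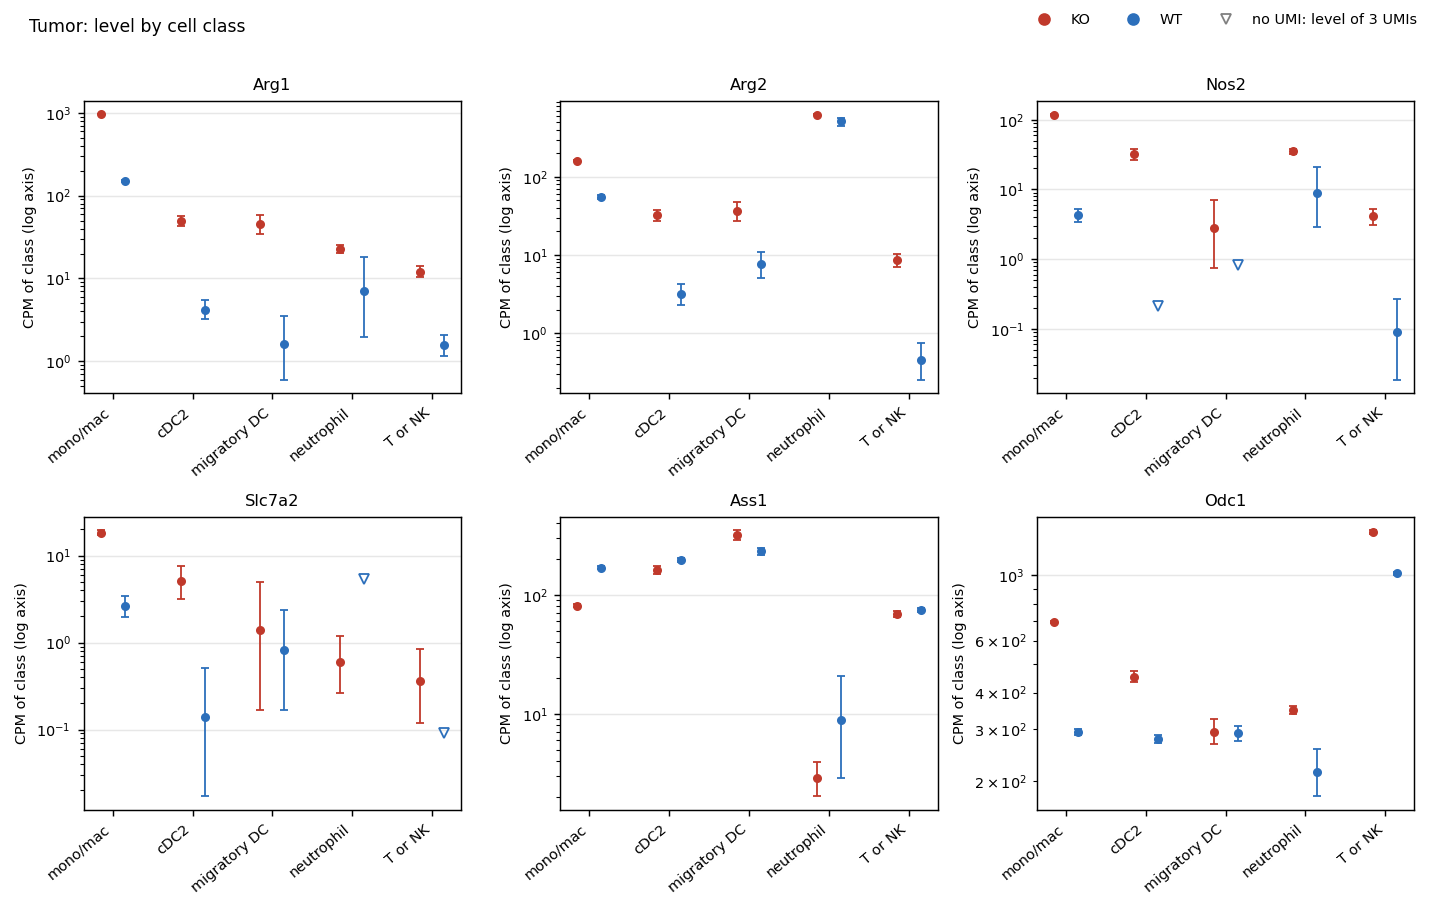
Level of each of the 6 genes in 5 cell classes of the tumor libraries, in UMIs per 1000000 UMIs of the class (CPM, log axis), KO (red) left of WT (blue), with exact 95% Poisson intervals for counting error. Open triangles mark a class with no UMI, at the level of 3 UMIs. In the monocyte or macrophage class 5 genes lie higher in KO and Ass1 lies lower, while Odc1 is high in T or NK cells of both libraries.

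In tumor monocyte or macrophage cells, the class with most of the Arg1, Nos2 and Slc7a2, 5 of the 6 genes were past 1.5-fold higher in KO and 1, Ass1, was past 1.5-fold lower in KO. Over all 11131 genes with at least 50 UMIs in this class, 6.76% were past 1.5-fold higher and 19.7% past 1.5-fold lower. The median log2 ratio was 2.12 over the 6 genes and -0.22 over all genes measured. The class held 4886 KO cells and 2282 WT cells in clusters 0, 1, 2, 3 and 17, which the libraries filled unequally. Cluster 0 (led by Mgst1 and Chil3) held 903 KO and 675 WT cells, cluster 1 (Lyz2, Ly6i and Vcan) 674 KO and 848 WT cells, and cluster 2 (the complement genes C1qa and C1qb, with Pf4) 1368 KO and 572 WT cells. Cluster 17 (Gpnmb and Mmp12) held 383 KO and 158 WT cells. Cluster 3 (Serpinb2, Csf3 and Cxcl1) held 1558 KO cells and only 29 WT cells, so no ratio was taken in it. Nos2 stood among the 10 leading genes of clusters 3 and 17, and Arg1 among those of cluster 17.

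Slc7a2, the transporter, was at 18.3 CPM in KO, against 2.60 CPM in WT, a ratio of 7.03 (95% interval 5.33 to 9.45). These were 995 UMIs in KO and 53 in WT, and 94.9% of all Slc7a2 UMIs of the KO tumor library lay in this class, against 84.1% in WT. After every cell was thinned to 1000 UMIs, Slc7a2 was seen in 1.58% of KO cells and 0.221% of WT cells. By cluster it was highest in cluster 17, at 70.2 CPM in KO, against 11.6 CPM in WT (ratio 6.04, 95% interval 3.60 to 10.9). The C1qa-led cluster 2 gave 6.23 CPM in KO, against 4.08 CPM in WT, and its interval of 0.964 to 2.51 includes 1. Cluster 3 had 33.1 CPM in KO and 0 UMIs in its 29 WT cells. Clusters 0 and 1 were low, at 4.43 and 2.63 CPM in KO, against 0 UMIs and 2.01 CPM in WT. In clusters 0 and 1 Slc7a2 was under the minimum of UMIs for a ratio, so none is given. In KO, clusters 17 and 3 had the highest Slc7a2 levels of the class.

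Arg1 was at 963 CPM in KO, against 149.7 CPM in WT in the combined class, a ratio of 6.43 (95% interval 6.20 to 6.67), from 52429 UMIs in KO and 3051 in WT. Thinned, it was seen in 24.04% of KO cells and 5.08% of WT cells, and unthinned in 39.7% of KO cells and 11.5% of WT cells. This class held 97.5% of the Arg1 UMIs of KO tumor and 89.7% of those of WT tumor. Both macrophage clusters were high. Cluster 17 had the highest Arg1 in both libraries, 2498 CPM in KO, against 972 CPM in WT, a ratio of 2.57 (95% interval 2.42 to 2.73). Cluster 2 followed with 1530.1 CPM in KO, against 252 CPM in WT, a ratio of 6.07 (95% interval 5.76 to 6.41). Monocyte clusters 0 and 1 were far lower, and their ratios differed in direction. Cluster 0 had 74.4 CPM in KO, against 8.91 CPM in WT (ratio 8.35, 95% interval 6.29 to 11.3), but cluster 1 had 21.2 CPM in KO, against 36.5 CPM in WT, a ratio of 0.581 (95% interval 0.471 to 0.713), lower in KO. In cluster 1 the share of cells with Arg1 was not lower in KO at full depth, with 10.2% of KO cells and 6.49% of WT cells, and thinned it was 1.49% of KO cells and 1.90% of WT cells. At full depth 59 of the 674 KO cells (8.75%) had only 1 to 3 Arg1 UMIs. Free Arg1 RNA, read below from T or NK cells, was higher in KO, and its part in this share was not tested. The 273 WT UMIs of cluster 1 lay in the 6.49% of its cells with Arg1, of which 3 cells had 16 to 63 UMIs and 1 had 70. A plain mean over clusters 0, 1, 2 and 17, which gives them equal weight and leaves out cluster 3, gave a ratio of 3.25 in place of 6.43, while leaving out cluster 3 alone left it at 6.43.

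KO macrophage clusters had more cells with Arg1 and more cells with many Arg1 molecules. In cluster 2, 41.4% of KO cells and 81.6% of WT cells had 0 Arg1 UMIs. At the other end, 143 of 1368 KO cells (10.5%) and 5 of 572 WT cells (0.874%) had 64 or more. Cluster 17 had the same shape, with 0 Arg1 UMIs in 22.2% of KO cells and 48.7% of WT cells, and 64 or more in 10.97% of KO cells and 1.90% of WT cells. Arg1 was not confined to these clusters in KO. In cluster 3, 56.4% of 1558 KO cells had 0 Arg1 UMIs, 13.3% had 16 to 63 and 4.69% had 64 or more. Of its 29 WT cells, 24 had 0. These per-cell counts are not thinned, and KO cells of the class were the deeper, with medians of 10366 UMIs in KO and 8164 in WT.

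**Figure D2:**
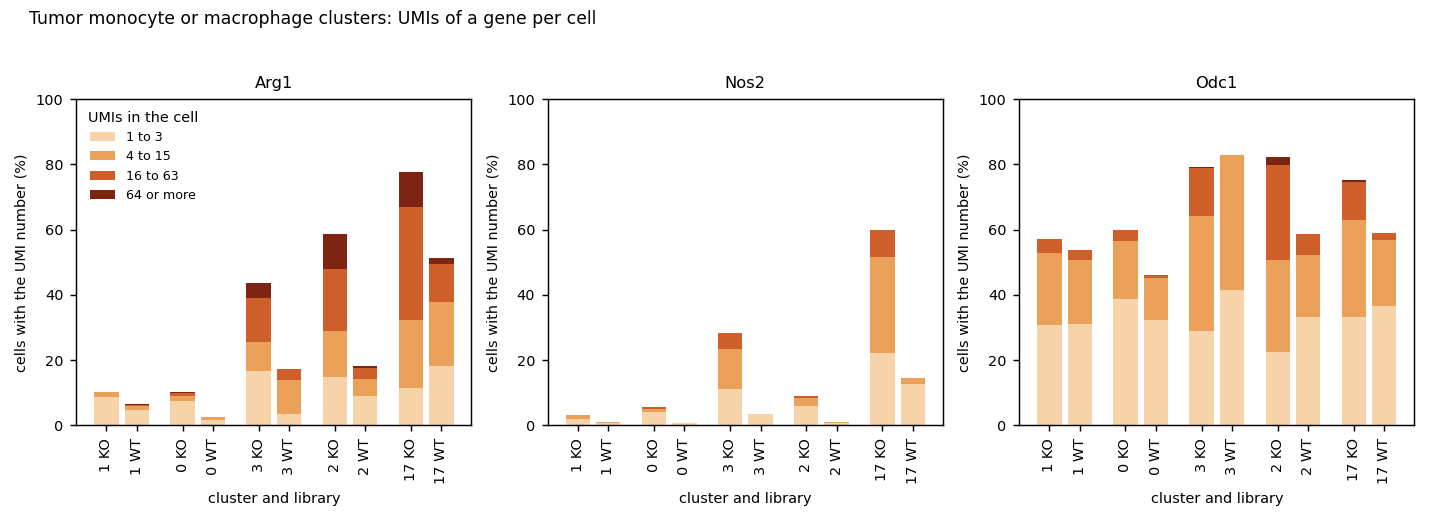
Share of cells (percent) with 1 to 3, 4 to 15, 16 to 63 and 64 or more UMIs of Arg1, Nos2 or Odc1, stacked, in the 5 tumor monocyte or macrophage clusters, KO left of WT, without thinning. In the C1qa-led cluster 2, 10.5% of KO cells and 0.874% of WT cells reached 64 Arg1 UMIs.

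Arg2, the mitochondrial arginase, was at 161 CPM in KO, against 55.1 CPM in WT in the combined class, a ratio of 2.92 (95% interval 2.74 to 3.11), and thinned it was seen in 13.6% of KO cells and 5.04% of WT cells. Unlike Arg1, it was higher in KO in each of the 4 clusters that gave a ratio. Cluster 0 had 99.6 CPM in KO, against 56.8 CPM in WT (ratio 1.75, 95% interval 1.55 to 1.99) and cluster 1 had 103 CPM in KO, against 64.5 CPM in WT (ratio 1.59, 95% interval 1.42 to 1.79). In the macrophage clusters the ratios were larger: cluster 2 had 76.01 CPM in KO, against 22.6 CPM in WT (ratio 3.37, 95% interval 2.81 to 4.08), and cluster 17 had 289 CPM in KO, against 116 CPM in WT (ratio 2.49, 95% interval 2.10 to 2.97). Cluster 3 had 276 CPM in KO, against 150.1 CPM in WT, the WT value from 29 cells. Arg2 is also a neutrophil gene here, and neutrophil markers were higher in KO as well: the 10 mature neutrophil markers summed to 1769 CPM in KO and 1228 CPM in WT monocyte or macrophage cells, with none at 0, and the 8 immature neutrophil markers to 625 CPM in KO and 291 CPM in WT, with none at 0. S100a9, a neutrophil and monocyte gene, was at 253 CPM in KO, against 69.5 CPM in WT of the class. Their part in the Arg2 difference was not tested.

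Nos2 had the largest ratio of the 6 genes. It was at 119 CPM in KO, against 4.32 CPM in WT, a ratio of 27.5 (95% interval 22.3 to 34.4), from 6473 UMIs in KO and 88 in WT, and thinned it was seen in 7.44% of KO cells and 0.398% of WT cells. Cluster 17 was highest in both libraries, with 490.3 CPM in KO, against 43.4 CPM in WT (ratio 11.3, 95% interval 8.66 to 15.01) and, thinned, 29.1% of KO cells and 4.58% of WT cells. Cluster 3 had 219.8 CPM in KO, and its 29 WT cells had 1 UMI. Levels were lower in clusters 0, 1 and 2, where Nos2 was seen unthinned in only 5, 8 and 6 WT cells, in that order. In these clusters Nos2 met the minimum of UMIs for a ratio only through the KO cells, which favors a higher value in KO. Their ratios are given for completeness and are not read as separate results about Nos2. Cluster 0 had 32.98 CPM in KO, against 1.22 CPM in WT (ratio 26.96, 95% interval 12.9 to 67.6). Cluster 2 had 28.4 CPM in KO, against 2.13 CPM in WT (ratio 13.3, 95% interval 7.55 to 25.9), and cluster 1 had 10.5 CPM in KO, against 1.60 CPM in WT (ratio 6.56, 95% interval 3.53 to 13.3). Without cluster 3 the ratio of the combined class was 16.9, and as a plain mean over clusters 0, 1, 2 and 17 it was 11.6. In cluster 17, 31 of 383 KO cells (8.09%) and 0 of 158 WT cells had 16 to 63 Nos2 UMIs.

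**Figure D3:**
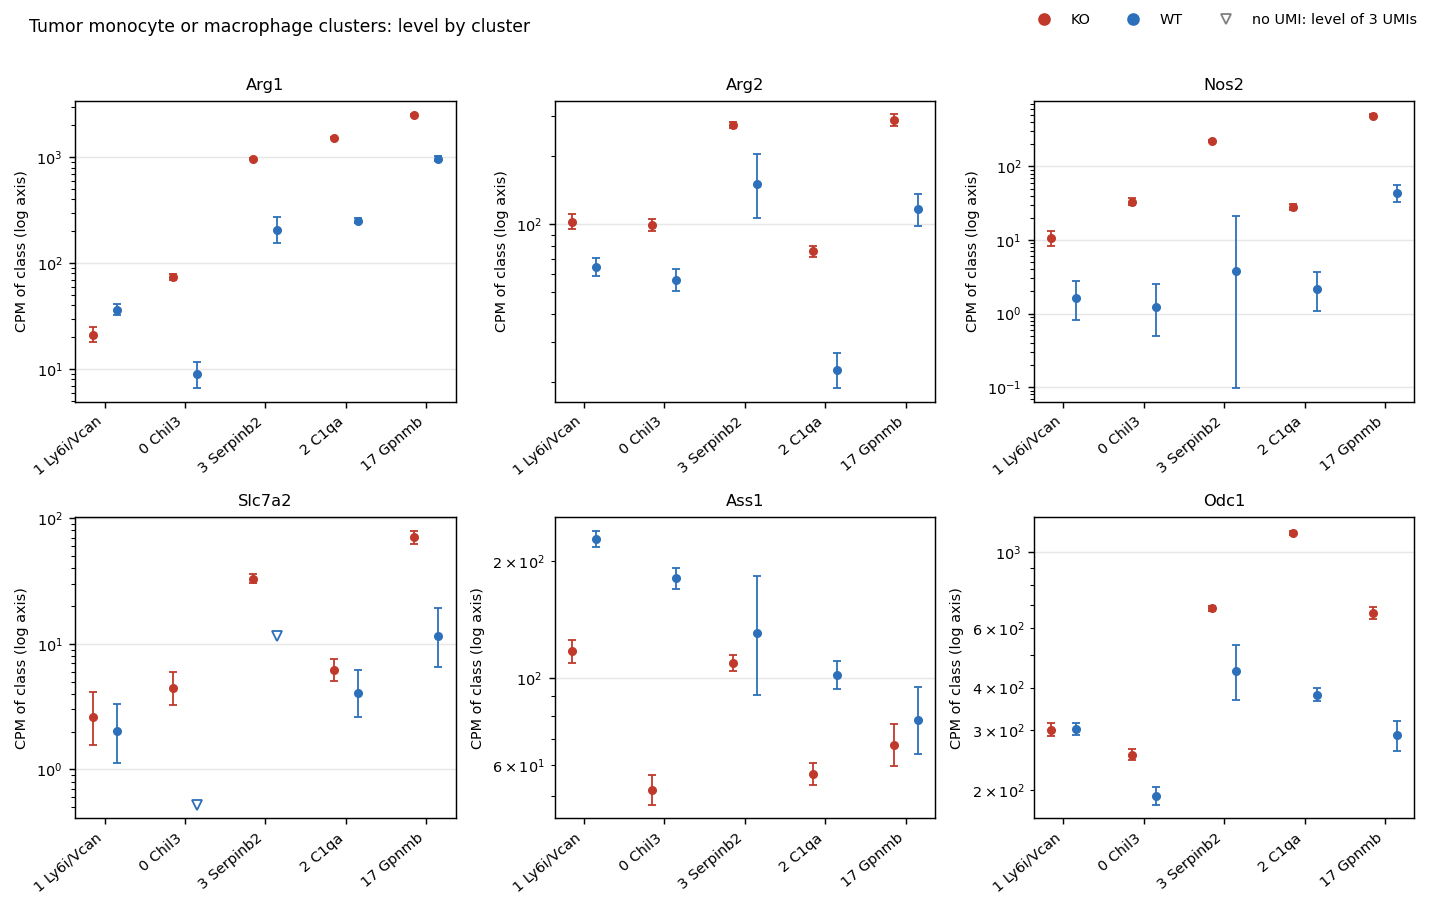
Level of each of the 6 genes (CPM, log axis) in the 5 tumor monocyte or macrophage clusters, KO (red) left of WT (blue), with exact 95% Poisson intervals for counting error and open triangles, at the level of 3 UMIs, where no UMI was seen. Arg1, Nos2 and Slc7a2 are highest in the Gpnmb-led cluster 17, Arg1 in cluster 1 lies lower in KO, and Ass1 lies lower in KO in clusters 0, 1 and 2.

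Ass1, which makes argininosuccinate from citrulline, was the gene lower in KO, at 80.6 CPM in KO, against 169 CPM in WT, a ratio of 0.477 (95% interval 0.456 to 0.499). Thinned, it was seen in 7.67% of KO cells and 13.9% of WT cells. Its order over clusters was not that of Arg1 and Nos2. In WT it was highest in the monocyte clusters 1 and 0, at 228 and 181 CPM, and lowest in cluster 17. Cluster 0 had 51.8 CPM in KO, against 181 CPM in WT (ratio 0.287, 95% interval 0.258 to 0.319), the smallest ratio. Cluster 1 had 117 CPM in KO, against 228 CPM in WT (ratio 0.515, 95% interval 0.473 to 0.560), and cluster 2 had 56.8 CPM in KO, against 102 CPM in WT (ratio 0.557, 95% interval 0.502 to 0.619). In cluster 17, where Nos2 and Arg1 were highest, Ass1 was at 67.6 CPM in KO, against 78.3 CPM in WT, and its interval of 0.683 to 1.10 includes 1. Cluster 3 had 109 CPM in KO, against 131 CPM in WT, the WT value from 29 cells.

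Odc1, the entry to polyamines, was at 695 CPM in KO, against 294 CPM in WT, a ratio of 2.36 (95% interval 2.30 to 2.43), and thinned it was seen in 32.9% of KO cells and 18.3% of WT cells. Larger ratios stood in the macrophage clusters. Cluster 2 had 1141 CPM in KO, against 381 CPM in WT (ratio 2.99, 95% interval 2.86 to 3.13), the highest Odc1 of the 5 clusters in KO, and cluster 17 had 664 CPM in KO, against 289 CPM in WT (ratio 2.29, 95% interval 2.06 to 2.56). Cluster 0 had 254 CPM in KO, against 192 CPM in WT (ratio 1.32, 95% interval 1.23 to 1.42), within 1.5-fold, and cluster 1 had 301 CPM in KO, against 302 CPM in WT (ratio 0.998, 95% interval 0.939 to 1.06). In cluster 2, 29.2% of KO cells and 6.47% of WT cells had 16 to 63 Odc1 UMIs. In cluster 3, 14.7% of 1558 KO cells and 0 of 29 WT cells did.

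Arg1 and Nos2, which compete for arginine, were seen in the same cells. Among 4866 KO monocyte or macrophage cells thinned to 1000 UMIs, Arg1 was in 1170, Nos2 in 362 and both in 182, where the product of the separate shares gives 87.04. Nos2 was in 15.6% of KO cells with Arg1 and 4.87% of those without. In WT, Arg1 was in 115 of 2262 cells, Nos2 in 9, and both in 7, where the product gives 0.458. The overlap followed the clusters in part. Within KO cluster 17 both genes were in 71 cells, where the product gives 69.9. Within KO cluster 3 both were in 84 cells, where the product gives 49.3. Arg1 and Ass1 were both in 69 KO cells, where the product gives 89.7, and in 6 WT cells, where it gives 15.96. Unthinned, they were both in 757 KO cells, where the product gives 754, and in 121 WT cells, where it gives 148, so the KO shortfall was not seen at full depth. Odc1, the next step after arginase, was with Arg1 in 511 KO cells, where the product gives 384, and in 23 WT cells, where it gives 21.05. Within KO clusters the counts were nearer to the product, with 83 cells against 83.1 in cluster 17, 154 against 137 in cluster 3 and 265 against 239 in cluster 2. These counts are descriptions within 1 library each.

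T or NK cells, which were taken to lack Arg1 and Nos2, set the level of free RNA in the tumor libraries, and that level was also higher in KO. Among 1775 KO and 5658 WT T or NK cells, Arg1 was at 12.1 CPM in KO cells and 1.56 CPM in WT cells, Arg2 at 8.55 CPM in KO cells and 0.451 CPM in WT cells, and Nos2 at 4.09 CPM in KO cells and 0.0902 CPM in WT cells. Whether the Arg2 of these cells was free RNA or their own was not tested. Thinned, Arg1 was seen in 0.739% of KO cells and 0.179% of WT cells, with median depths of 6337 UMIs in KO and 5072 in WT before thinning. Slc7a2 had 5 UMIs in KO and 0 in WT. In the monocyte or macrophage class the shares were far above these in both libraries, 24.04% of KO cells and 5.08% of WT cells for Arg1. With the T or NK UMIs per cell subtracted, the ratio of that class was 6.42 for Arg1 and 27.2 for Nos2. Ass1 and Odc1 are no such measure, since T or NK cells had their own: Ass1 was at 68.9 CPM in KO cells and 74.7 CPM in WT cells, and Odc1 at 1396 CPM in KO cells and 1013 CPM in WT cells, with at least 1 UMI in 82.6% of KO cells and 74.4% of WT cells.

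Tumor neutrophils also held arginase, as Arg2. They were 3086 KO cells and 215 WT cells, and 4 of the 6 genes were measured in them, of which 3 (Arg1, Nos2 and Odc1) were past 1.5-fold higher in KO and 0 lower. Of all 6363 genes measured there, 12.8% were past 1.5-fold higher and 35.7% lower, with a median log2 ratio of -0.30. Arg1 is at the free-RNA level in these cells, which leaves Nos2 and Odc1, and the interval of Odc1 reaches below 1.5-fold. With 215 WT cells, the count is not read as a result about these genes. Arg2 was at 628 CPM in KO, against 512 CPM in WT, a ratio of 1.23 (95% interval 1.09 to 1.39), within 1.5-fold. Thinned, it was seen in 42.9% of KO cells and 35.8% of WT cells. KO neutrophils held 47.4% of the Arg2 UMIs of their library, against 17.2% in WT. Monocyte or macrophage cells held more Arg2 UMIs than neutrophils in both libraries, 49.9% in KO and 67.7% in WT. Both neutrophil clusters carried it. Cluster 11 (led by Hcar2 and Asprv1, 1851 KO and 78 WT cells) had 597 CPM in KO, against 561 CPM in WT (ratio 1.06, 95% interval 0.884 to 1.29), and cluster 16 (G0s2 and Retnlg, 1235 KO and 137 WT cells) had 674 CPM in KO, against 483 CPM in WT (ratio 1.40, 95% interval 1.20 to 1.64).

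The remaining genes were weaker in neutrophils. Odc1 was at 349.6 CPM in KO, against 215 CPM in WT, a ratio of 1.63 (95% interval 1.36 to 1.97). The clusters were not alike, with ratios of 1.04 (95% interval 0.839 to 1.31) in cluster 11 and 2.30 (95% interval 1.66 to 3.29) in cluster 16. Nos2 was at 35.1 CPM in KO, against 8.95 CPM in WT (ratio 3.93, 95% interval 1.67 to 12.1), the WT value from 5 UMIs. Arg1 had 299 UMIs in KO and 4 in WT, or 0.0969 UMIs per cell in KO and 0.0186 in WT. T or NK cells of the same libraries had 0.0930 UMIs per cell in KO and 0.00919 in WT, so the KO neutrophil value was at the free-RNA level. Arg1 is read there as background and not as expression, and its ratio turned to 0.253 when the T or NK UMIs per cell were subtracted. Ass1 and Slc7a2 were under the minimum of 50 UMIs, with 38 UMIs in KO and 5 in WT for Ass1 and 8 UMIs in KO and 0 in WT for Slc7a2.

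Dendritic cells held Ass1 and Odc1, with little arginase or Nos2. In cDC2, the conventional dendritic cells that carry Cd209a, 262 KO cells and 1131 WT cells gave Ass1 at 161 CPM in KO, against 194 CPM in WT, a ratio of 0.830 (95% interval 0.763 to 0.902). Of 5 genes measured, 4 (Arg1, Arg2, Nos2 and Odc1) were past 1.5-fold higher in KO and 0 lower, where 7.67% of 9274 genes were higher and 11.7% lower. Nos2 passed the minimum of 50 UMIs through KO cells alone, so its place among the 4 was fixed by that minimum. The count is therefore not read as a result about these genes. Arg1 was at 49.6 CPM in KO, against 4.22 CPM in WT (ratio 11.8, 95% interval 8.80 to 15.9), and thinned it was seen in 2.30% of KO cells and 0.444% of WT cells, and it had 0.824 UMIs per cell in KO and 0.0531 in WT. Arg2 was at 32.2 CPM in KO, against 3.16 CPM in WT (ratio 10.2, 95% interval 7.22 to 14.6). Nos2 had 139 UMIs in KO and 0 in WT, which is at least 151-fold higher against a floor of 3 UMIs in the WT class. These Nos2 UMIs came from 15 KO cells, with up to 47 UMIs in 1 cell, and thinned Nos2 was seen in 0.383% of KO cells. Macrophage markers were higher in KO cDC2 as well: the 8 markers summed to 444 CPM in KO and 103 CPM in WT cDC2, with none at 0, and the 10 mature neutrophil markers to 461 CPM in KO and 168 CPM in WT, with 0 markers at 0 in KO and 2 in WT. Their part in the 4 higher genes was not tested. Odc1 was at 453 CPM in KO, against 278 CPM in WT (ratio 1.63, 95% interval 1.54 to 1.72). These ratios depend on how the class is drawn: with clusters made in the WT library alone they were 2.50 for Arg1, 2.91 for Arg2 and 1.12 for Odc1, so Odc1 was then within 1.5-fold, and Nos2 was under the minimum for a ratio. The Arg2 ratio was also 5.69 with marked doublets kept and 4.50 with at most 5% mitochondrial UMIs. Migratory dendritic cells, 102 in KO and 332 in WT, had Ass1 at 316 CPM in KO, against 233 CPM in WT (ratio 1.36, 95% interval 1.21 to 1.52) and Odc1 at 295 CPM in KO, against 291 CPM in WT (ratio 1.01, 95% interval 0.903 to 1.13), both within 1.5-fold. Arg1 and Arg2 were past it there, from 65 UMIs in KO and 6 in WT for Arg1 and 53 UMIs in KO and 28 in WT for Arg2, where 8.26% of 6271 genes were higher and 11% lower. Both genes met the minimum of 50 UMIs only through the KO cells, so these calls are not read as results about them.

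In bone marrow, arginine genes were split by cell class. The largest share of Arg2 UMIs lay in mature neutrophils, of Ass1 in a monocyte-leaning cluster and of Odc1 in erythroid cells. Mature neutrophils, 4516 in KO and 1968 in WT, had Arg2 at 179 CPM in KO, against 185 CPM in WT, a ratio of 0.969 (95% interval 0.885 to 1.06), and thinned it was seen in 17.6% of KO cells and 17.5% of WT cells. They held 88.2% of the Arg2 UMIs of KO marrow and 81.9% of those of WT marrow. The higher whole-library Arg2 of KO marrow went with more of these cells, 45.7% of KO cells and 25.9% of WT cells. None of the 2 genes measured was past 1.5-fold in either direction, while 14.9% of 7346 genes were higher and 4.51% lower, with a median log2 ratio of 0.22. Among mature neutrophil clusters of the marrow with a value in both libraries, Arg2 was lowest in cluster 5 (Mmp8-led), at 80.5 CPM in KO cells and 83.7 CPM in WT cells. Cluster 12 had 203 CPM in KO cells and 177 CPM in WT cells. Arg2 was higher in cluster 3 (Ccl6 and Clec4d), at 272 CPM in KO cells and 294 CPM in WT cells, in cluster 2 (Il1b), at 235 CPM in KO cells and 269.8 CPM in WT cells, and in cluster 6 (the interferon genes Ifit1 and Ifit3), at 244 CPM in KO cells and 195 CPM in WT cells. Cluster 14 (Stfa2 and Stfa1) had 182 CPM in 239 KO cells and held only 2 WT cells. Odc1 was low in mature neutrophils, at 4.40 CPM in KO cells and 4.54 CPM in WT cells.

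**Figure D4:**
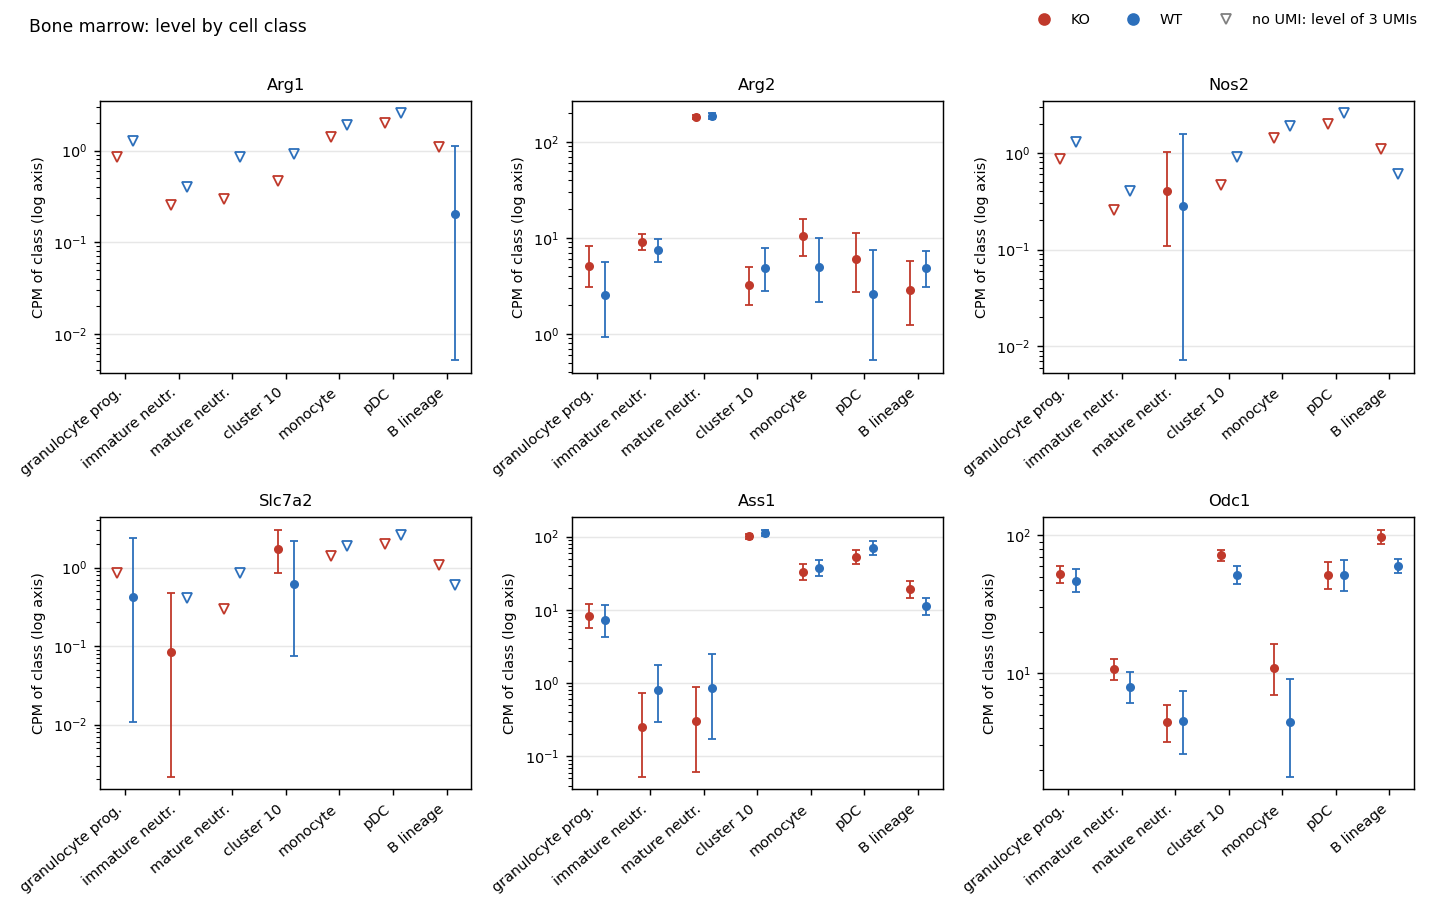
Level of the genes (CPM, log axis) in 6 myeloid classes and B lineage cells of the bone marrow libraries, KO (red) left of WT (blue), with exact 95% Poisson intervals for counting error and open triangles, at the level of 3 UMIs, where no UMI was seen. Arg2 stands out in mature neutrophils and Ass1 in cluster 10, with KO and WT close to each other in both.

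Earlier stages had little Arg2. Immature neutrophils, 2224 in KO and 1624 in WT, had 9.05 CPM in KO, against 7.41 CPM in WT (ratio 1.22, 95% interval 0.874 to 1.72), and granulocyte progenitors, 263 in KO and 222 in WT, had 5.16 CPM in KO, against 2.56 CPM in WT. B lineage cells, 608 in KO and 1683 in WT, set the background, at 2.89 CPM in KO cells and 4.86 CPM in WT cells for Arg2. Odc1 ran the other way over the granulocyte stages. Erythroid cells held 42.9% of its UMIs in KO marrow and 48.4% in WT marrow. B lineage cells held 9.88% of the Odc1 UMIs in KO and 16.2% in WT, and granulocyte progenitors 6.66% and 6.01%. Granulocyte progenitors had 52.2 CPM in KO, against 46.9 CPM in WT (ratio 1.11, 95% interval 0.873 to 1.42), and immature neutrophils 10.7 CPM in KO, against 7.95 CPM in WT (ratio 1.34, 95% interval 0.977 to 1.86), both within 1.5-fold. None of the 2 genes measured in immature neutrophils was past 1.5-fold, where 7.34% of 8673 genes were higher in KO and 1.66% lower. Neither was Odc1, the 1 gene measured in granulocyte progenitors, where 3.32% of 7705 genes were higher and 2.47% lower.

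Ass1 of the marrow was highest in cluster 10, which is unnamed because it carries granulocyte progenitor and monocyte markers together, with F13a1, Klf4, Fn1 and Ass1 itself among its leading genes. Its 386 KO cells and 266 WT cells had 101 CPM in KO, against 112 CPM in WT (ratio 0.899, 95% interval 0.790 to 1.02), and thinned Ass1 was seen in 7.07% of KO cells and 10.7% of WT cells. Unthinned, the order was the other way, with 68.9% of KO cells and 60.9% of WT cells. They held 63.5% of the Ass1 UMIs of KO marrow and 52.2% of those of WT marrow. Odc1 in cluster 10 was at 71.7 CPM in KO, against 51.8 CPM in WT (ratio 1.39, 95% interval 1.16 to 1.66). Monocytes, 445 in KO and 409 in WT, had Ass1 at 33.2 CPM in KO, against 37.7 CPM in WT (ratio 0.880, 95% interval 0.615 to 1.26), and plasmacytoid dendritic cells, 247 in KO and 253 in WT, had 52.6 CPM in KO, against 69.7 CPM in WT (ratio 0.755, 95% interval 0.547 to 1.04). Both intervals include 1, so a KO to WT difference in Ass1 of these 2 classes was not resolved at this depth. B lineage cells, at lower levels, had 19.2 CPM in KO, against 11.1 CPM in WT, higher in KO with a ratio of 1.72 (95% interval 1.16 to 2.56) from 53 UMIs in KO and 55 in WT. Both genes measured there, Ass1 and Odc1, were past 1.5-fold higher in KO, where 5.36% of 8979 genes were higher and 6.23% lower. The class spans 5 clusters with 608 KO and 1683 WT cells, and the part of its makeup was not tested. The inducible genes were near 0. Arg1 had 0 UMIs in every myeloid class of both marrow libraries, and the 4 KO and 1 WT Nos2 UMIs all lay in mature neutrophils. Of the 32 KO and 9 WT Slc7a2 UMIs, marrow macrophages (the C1qa-led cluster 11, 156 KO and 83 WT cells) held 17 in KO and 3 in WT, and cluster 10 held 11 in KO and 2 in WT, too few for a ratio.

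Likeness over clusters was taken as Pearson's r of log2(CPM + 10) over the clusters of both libraries with at least 50 cells, 44 points in tumor and 49 in bone marrow, with no p, since points share libraries and depth. In tumor, Arg1 was most like Pf4 (0.938), the transporter Slc7a8 (0.925), Pdpn (0.913), Mmp12 (0.904) and C3ar1 (0.893). Nos2 was most like Serpinb2 (0.904), Pdpn, Inhba, Abca1 and Mmp13 (0.848). Slc7a2 was most like Cacna1d (0.844), Fam20c, Pdpn and Met, with Arg1 the fifth (0.827). Arg2 had the closest partners, Sgms2 (0.966), Fpr2, Trem1, Il1a and Clec4e (0.951). Ass1 was most like Got1 (0.904), an aspartate aminotransferase, then Rgs10, Crip1, Wasf2 and Itm2c (0.766). Odc1 was most like Zdhhc2 (0.792), Yaf2, Faah, Smco4 and Mllt3 (0.779). In bone marrow, Arg2 was most like the cystine transporter Slc7a11 (0.976), Il1f9, Clec4d, Sfxn5 and Nlrp12 (0.968). Odc1 was there most like Pabpc4 (0.933).

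The neighboring steps of the pathway differed in direction in tumor monocyte or macrophage cells, where the median log2 ratio over all genes was -0.22. Over 8 other lists together, 78 genes were measured, of which 13 (16.7%) were past 1.5-fold higher in KO and 23 (29.5%) past 1.5-fold lower, where 6.76% of all genes were higher and 19.7% lower. Without cluster 3 the lower ones were 14. Of 8 other genes of arginine and ornithine transport, 6 were measured, with 2 past 1.5-fold higher in KO, 1 past 1.5-fold lower and a median log2 ratio of 0.10. Slc7a8, a neutral amino acid transporter, was at 127 CPM in KO, against 49.6 CPM in WT, a ratio of 2.56, and the ornithine carrier Slc25a15 at 2.79 CPM in KO, against 1.13 CPM in WT, a ratio of 2.47. Slc7a6 was at 2.85 CPM in KO, against 5.30 CPM in WT, a ratio of 0.537, and the constitutive cationic transporter Slc7a1 at 14.2 CPM in KO, against 18.5 CPM in WT, a ratio of 0.769. The urea cycle and citrulline list had 9 genes, of which 5 were measured, with 0 past 1.5-fold higher in KO, 2 past 1.5-fold lower and a median log2 ratio of -0.52. Asl, which completes the return of citrulline to arginine after Ass1, was at 34.4 CPM in KO, against 42.3 CPM in WT, a ratio of 0.813, within 1.5-fold. The aspartate carrier Slc25a13 and the peptidyl arginine deiminase Padi2 were lower, with ratios of 0.547 and 0.653. Of 9 genes for nitric oxide and its cofactor tetrahydrobiopterin, 7 were measured, with 0 past 1.5-fold higher in KO, 3 past 1.5-fold lower and a median log2 ratio of -0.56. The genes lower in KO included the endothelial synthase Nos3 (2.02 CPM in KO, 4.12 CPM in WT), its partner Nosip (16.98 CPM in KO, 29.3 CPM in WT) and the cofactor enzyme Spr.

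Downstream of ornithine, the proline and creatine list had 8 of 10 genes measured, 0 higher and 4 lower, with a median log2 ratio of -0.52. Single clusters differed: cluster 0 had 1 higher and 1 lower of 6 measured, cluster 1 had 0 and 0 of 5, and cluster 2 had 1 and 3 of 7. In cluster 17 the 1 gene measured was within 1.5-fold. The part of the unequal cluster makeup in the combined value was not tested. Gatm, the first enzyme of creatine synthesis, was at 5.73 CPM in KO, against 14.2 CPM in WT, a ratio of 0.403, and Aldh18a1, an enzyme of proline synthesis, had a ratio of 0.550. The polyamine list after Odc1 had 14 genes, of which 14 were measured, with 1 past 1.5-fold higher in KO, 4 past 1.5-fold lower and a median log2 ratio of -0.39. The gene higher in KO was Smox, spermine oxidase, at 543 CPM in KO, against 266 CPM in WT, a ratio of 2.04. Eif5a, the translation factor that carries the polyamine-derived hypusine, was at 426 CPM in KO, against 685 CPM in WT, a ratio of 0.623, and Dohh, the second enzyme that makes hypusine, had a ratio of 0.639. Of 18 known regulators of Arg1 and Nos2, 18 were measured, with 1 past 1.5-fold higher in KO, 4 past 1.5-fold lower and a median log2 ratio of -0.18. Hif1a, the hypoxia factor, was at 516 CPM in KO, against 242 CPM in WT, a ratio of 2.14. Pparg was at 2.07 CPM in KO, against 9.96 CPM in WT, a ratio of 0.208. Irf1, an interferon regulatory factor, was at 112 CPM in KO, against 169.7 CPM in WT, a ratio of 0.660.

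Activation markers that usually go with Arg1 or with Nos2 did not sort by side. Of 11 genes of alternative activation, 10 were measured, with 5 past 1.5-fold higher in KO, 2 past 1.5-fold lower and a median log2 ratio of 0.67. Spp1 (osteopontin) was at 1325 CPM in KO, against 359.8 CPM in WT, a ratio of 3.68, and Vegfa at 357 CPM in KO, against 118 CPM in WT, a ratio of 3.01. Retnla was at 6.81 CPM in KO, against 38.5 CPM in WT, a ratio of 0.177, and the lectin Mgl2, also a dendritic cell marker, at 35.8 CPM in KO, against 166 CPM in WT, a ratio of 0.216. The classical activation list also had 11 genes, of which 10 were measured, with 4 past 1.5-fold higher in KO, 3 past 1.5-fold lower and a median log2 ratio of 0.31. Ptgs2, the prostaglandin synthase, was at 1707 CPM in KO, against 373 CPM in WT, a ratio of 4.57. Il1b was at 10159 CPM in KO, against 4304 CPM in WT, a ratio of 2.36, and the formyl peptide receptor Fpr2 at 114 CPM in KO, against 36.5 CPM in WT, a ratio of 3.12. The interferon-induced chemokine Cxcl9 was at 95.6 CPM in KO, against 223 CPM in WT, a ratio of 0.428. The 6 cDC2 markers, Mgl2 among them, summed to 62.1 CPM in KO and 258 CPM in WT monocyte or macrophage cells, with none at 0, and their part in the Mgl2 difference was not tested.

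The same lists were read in other classes. In tumor neutrophils, with 215 WT cells, 12.8% of all genes were past 1.5-fold higher in KO and 35.7% lower. There the citrullinating enzyme Padi4 had a ratio of 1.86, and the antizyme Oaz2, which restrains ornithine decarboxylase, had 1.69. Ornithine aminotransferase Oat, the 1 gene measured of its list, had 0.535. These ratios are not read as results about the genes. In cDC2, where 7.67% of all genes were higher and 11.7% lower, the regulator list had 3 of 17 genes higher, with Hif1a at 222 CPM in KO, against 119 CPM in WT, a ratio of 1.88, and the alternatively activated list 7 of 8, with Vegfa at 141 CPM in KO, against 32.3 CPM in WT, a ratio of 4.36. The classically activated list there had 5 of 10 higher and 1 lower. In tumor T or NK cells the alternatively activated list had 5 of 8 higher and 1 lower, where 6.77% of all genes were higher and 3.9% lower. The part of free RNA and of the higher macrophage markers of KO cDC2 in the cDC2 counts was not tested. In marrow mature neutrophils, where the median over all genes was 0.22, Asl was at 18.6 CPM in KO, against 11.3 CPM in WT, a ratio of 1.64, and Gch1, the first enzyme of tetrahydrobiopterin synthesis, at 16.8 CPM in KO, against 11.1 CPM in WT, a ratio of 1.52. Padi4, the neutrophil deiminase, was at 358 CPM in KO, against 274 CPM in WT, a ratio of 1.31, and the antizyme inhibitor Azin1 at 187 CPM in KO, against 134 CPM in WT, a ratio of 1.40, both within 1.5-fold. In marrow cluster 10 the creatine enzyme Gatm was at 117 CPM in KO, against 70.03 CPM in WT, a ratio of 1.67, and spermidine synthase Srm had a ratio of 1.39.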

How the data were processed

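Droplet libraries of sorted CD45+ cells were measured, 1 library per genotype and tissue. The deposited values are raw UMI counts per gene and barcode. Per the file headers, the tumor matrices were made by Cell Ranger 6.0.2 and the bone marrow matrices by version 3.1.0. Seurat 4.3.0, R 4.2.1, Cell Ranger 6.1.2 and the mm10 (GRCm38) build are listed in the submitters' processing notes. No normalization had been applied. Tumor totals were 111214201 UMIs in KO and 102548178 in WT, and bone marrow totals 51776813 in KO and 32906493 in WT.

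Barcodes with fewer than 200 genes or over 10% mitochondrial UMIs were removed. Scrublet, as run in scanpy 1.11.5, marked doublets. Its automatic threshold marked 7.71% in KO tumor and 4.60% in WT bone marrow. It marked under 0.5% in WT tumor and KO bone marrow, where the highest scores were removed at 0.8% per 1000 barcodes, 9.62% of barcodes in WT tumor and 8.85% in KO bone marrow. Tumor libraries shared 33 cell barcodes, as did the bone marrow libraries. Each tissue was clustered with both libraries together (2000 variable genes, 30 components, 15 neighbors, Leiden resolution 1, seed 0), with the 6 genes, the pathway lists, S100a8 and S100a9 excluded from those genes. Names came from lists of cell type markers.

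Levels are class sums per 1000000 UMIs of the class (CPM), with exact Poisson intervals, ratios have exact conditional intervals, and thinned shares use cells cut to 1000 UMIs, leaving out 161 shallower cells in KO tumor, 162 in WT tumor, 584 in KO bone marrow and 807 in WT bone marrow. Intervals are 95% and cover counting error only. A ratio needs 100 cells of a class, or 50 of a cluster, in each library. A gene counts as measured with at least 50 UMIs over both libraries. The floor for 0 is 3 UMIs. Named genes were all 6 members, and from each list per class up to 4 genes with the largest ratios among those with at least 100 UMIs and 0.2 of the level in their highest class. By likeness, up to 5 genes per member were named. A few genes that these rules name are not reported here. The scripts were tested on simulated data, and at the depth of 215 WT tumor neutrophils unchanged genes were often past 1.5-fold there. Alternatives changed the scaling total, weight and depth of cells, doublets, filters, clustering genes, resolution, mitochondrial limit and the library that defines classes. Leaving out cluster 3, the plain mean over clusters and the subtraction of T or NK UMIs were chosen after seeing the data, as were refinements of the cluster names. The genes and lists were chosen with earlier results of these data known.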

Additional observations from a re-analysis of the deposited data

How the results depend on the processing

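No paired analysis was possible because each group is 1 library. In tumor monocyte or macrophage cells the counts of 5 genes higher and 1 lower in KO held under every alternative run. The Arg1 ratio of 6.43 became 5.76 as a mean over cells, 5.66 with cells thinned to 1000 UMIs, 6.16 with at most 5% mitochondrial UMIs and 3.25 as a plain mean over clusters 0, 1, 2 and 17. The Nos2 ratio of 27.5 became 16.9 without cluster 3 and 11.6 as that plain mean. Other listed genes lower in KO there were 23, and 14 without cluster 3. With marked doublets kept, the share of Arg1 UMIs held by this class was 81.7% in KO tumor and 72.1% in WT tumor, where it was 97.5% in KO and 89.7% in WT without them, and the Arg2 ratio of tumor neutrophils was 1.5 in place of 1.23. The count of KO cells with both Arg1 and Nos2 over the product was 2.09 thinned and 1.71 unthinned. The Arg2 ratio of marrow mature neutrophils was 0.969, and 0.828 on totals without S100a8, S100a9, mitochondrial, ribosomal protein and hemoglobin genes. The Arg1 ratio of tumor neutrophils, 3.16, turned to 0.253 with the T or NK UMIs per cell subtracted. The cause of these moves was not tested. With 1 library a group, intervals cover counting error and not the spread between mice, and the low marrow counts of Arg1, Nos2 and Slc7a2 limit what could be measured there.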

Other observations

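Outside the myeloid classes, Odc1 and Ass1 were measured in tumor T cells. The Foxp3-led cluster 9, with 156 KO and 622 WT cells, had Ass1 at 302 CPM in KO cells and 328 CPM in WT cells (ratio 0.919, 95% interval 0.805 to 1.05), above the T or NK class as a whole at 68.9 CPM in KO cells and 74.7 CPM in WT cells. Its Odc1 was at 2629.7 CPM in KO cells and 2286 CPM in WT cells (ratio 1.15, 95% interval 1.10 to 1.20). The Cd4-led cluster 14 (414 KO and 1503 WT cells) had Odc1 at 2765 CPM in KO cells and 1504 CPM in WT cells (ratio 1.84, 95% interval 1.78 to 1.90), and the Il17a-led cluster 13 (129 KO and 329 WT cells) at 2196 CPM in KO cells and 1459 CPM in WT cells (ratio 1.5, 95% interval 1.41 to 1.61). Cd8a-led cluster 6 was lower, at 634 CPM in KO cells and 399 CPM in WT cells (ratio 1.59, 95% interval 1.5 to 1.69), as was the NK cluster 15, at 891 CPM in KO cells and 524 CPM in WT cells (ratio 1.70, 95% interval 1.62 to 1.79). Odc1 was higher in KO in each of these 5 clusters. The T or NK class has 9 clusters, and the others are not reported here. Over the whole class Odc1 was within 1.5-fold. Of all 11110 genes measured in the class, 6.77% were past 1.5-fold higher in KO and 3.9% lower.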
